A study of Mus musculus with 6 samples.

Results

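The glypicans and syndecans, the main families of heparan sulfate proteoglycans anchored in the cell membrane, were examined in RNA-seq data of the remodeling mouse heart valve region. The 9 genes Gpc1, Gpc2, Gpc3, Gpc4, Gpc6, Sdc1, Sdc2, Sdc3 and Sdc4 were taken by symbol from a table of 18810 Ensembl genes, and each of them was found as a single identifier. Gpc5 was not analysed here. The libraries came from atrioventricular canal regions of C57BL/6 hearts at embryonic day 15.5, and 3 were from Scx-/- embryos and 3 from Scx+/+ wild-type littermates. Scx encodes scleraxis, a basic helix-loop-helix transcription factor, and the labels name a null allele with no cell type-specific driver. By the study's methods, the dissected region held mitral, tricuspid and aortic valves. No cell sorting is described, so in these bulk samples fewer cells of a type and less RNA per cell cannot be told apart. Nothing in the labels says that the 3 libraries of a genotype came from separate litters, and p-values measure only the spread between these libraries.

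Heparan sulfate is a long, sulfated sugar chain that binds growth factors, morphogens and matrix proteins at the cell surface. Glypicans hold their chains on a globular, cysteine-rich protein that is tied to the outer membrane leaflet by a glycosylphosphatidylinositol anchor, and they are known for tuning Wnt, Hedgehog, bone morphogenetic protein and fibroblast growth factor signals. Syndecans span the membrane, and their short cytoplasmic tails bind PDZ proteins and the actin cytoskeleton, so that they act as co-receptors with integrins and fibroblast growth factor receptors. In the developing heart, loss of glypican 3 function is known to cause cardiac malformations, and heparan sulfate is known to be needed for endocardial cushion development.

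Both families attach heparan sulfate to serines that are followed by glycine, which are written in the gene as a serine codon next to a glycine codon. The coding sequences show where such codon pairs lie, and all 9 genes held them. A codon pair is a possible site and does not show that a chain is attached. Each line below gives the stretch of 60 coding bases with the most such codon pairs, from the longest coding sequence of the gene in the GENCODE annotation of mm9, with the codon pairs in capitals.
Gpc1: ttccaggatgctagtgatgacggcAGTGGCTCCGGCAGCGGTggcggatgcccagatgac
Gpc2: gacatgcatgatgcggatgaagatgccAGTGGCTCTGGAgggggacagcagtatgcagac
Gpc3: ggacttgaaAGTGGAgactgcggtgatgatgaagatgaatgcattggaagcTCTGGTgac
Gpc4: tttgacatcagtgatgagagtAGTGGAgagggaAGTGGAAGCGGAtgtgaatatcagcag
Gpc6: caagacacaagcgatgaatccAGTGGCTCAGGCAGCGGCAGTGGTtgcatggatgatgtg
Sdc1: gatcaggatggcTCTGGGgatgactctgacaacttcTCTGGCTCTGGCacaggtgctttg
Sdc2: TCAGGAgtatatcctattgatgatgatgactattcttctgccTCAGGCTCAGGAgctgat
Sdc3: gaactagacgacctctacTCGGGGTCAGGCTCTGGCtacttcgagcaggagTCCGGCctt
Sdc4: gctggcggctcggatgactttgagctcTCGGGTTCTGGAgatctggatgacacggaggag
The glypican stretches lie near the 3′ end of the coding sequence, from base 1459 to 1518 of 1674 in Gpc4, and the syndecan stretches near its 5′ end, from base 121 to 180 of 609 in Sdc2. Gpc4 and Gpc6 were the most similar glypicans, with 67.7% identical bases in the aligned coding sequence, against 58.3% for Gpc4 and Gpc3.

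The syndecans share their cytoplasmic end, which binds syntenin and other PDZ proteins. The last 102 coding bases before the stop codon are shown for each, with the final 12 bases, which encode the PDZ-binding end, in capitals.
Sdc1: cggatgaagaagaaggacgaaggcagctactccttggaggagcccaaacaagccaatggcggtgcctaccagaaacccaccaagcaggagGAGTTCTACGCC
Sdc2: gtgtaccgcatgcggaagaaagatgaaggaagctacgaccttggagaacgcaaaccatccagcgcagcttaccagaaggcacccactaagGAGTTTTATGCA
Sdc3: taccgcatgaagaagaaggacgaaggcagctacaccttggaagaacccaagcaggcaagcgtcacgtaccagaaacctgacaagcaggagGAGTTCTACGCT
Sdc4: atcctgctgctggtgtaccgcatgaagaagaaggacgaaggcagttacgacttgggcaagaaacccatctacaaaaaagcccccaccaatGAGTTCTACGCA
The lengths of the coding sequences were 936, 609, 1329 and 597 bases in Sdc1, Sdc2, Sdc3 and Sdc4, so that Sdc3 has the longest and Sdc4 the shortest protein.

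The 9 genes lie on 8 chromosomes of mm9, and Gpc3 and Gpc4 share one. Gpc4 (ENSMUSG00000031119) and Gpc3 (ENSMUSG00000055653) are on the minus strand of chromosome X, at chrX:49406198-49518429 and chrX:49625603-49967127. Gpc1 is at chr1:94728222-94756775, Gpc2 at chr5:138706180-138721233 and Gpc6, the longest gene, at chr14:117324519-118378751. Sdc1 is at chr12:8778129-8800521, Sdc2 at chr15:32850478-32964485, Sdc3 at chr4:130348452-130382234 and Sdc4 at chr2:164249747-164269387. All values below are whole-gene values over the exons of these genes.

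Values are RPKM, reads scaled to exon length and to the depth of the library, so that levels can be compared between genes. The recovered depth of the libraries ranged from 46429988 to 68571049 reads. Scx+/+ replicate 2, the shallowest, stood apart, with 56.9% of its summed RPKM in its 10 highest genes against 30.7% to 43.9% in the others and 2252 values at the fill-in value that replaces low values against 1088 to 1465. Without it, 1549 of all genes were called in the comparison below, against 731 with all 6 libraries. Scx itself was 33.6, 18.6 and 82.9 RPKM in Scx-/- replicates 1 to 3. It was 29.5, 58.3 and 26.0 RPKM in Scx+/+ replicates 1 to 3. This whole-gene value does not check the genotype labels, and libraries are named here by their labels. The study reports that a large decrease of an Scx exon in the Scx-/- samples was established before sequencing. That check at exon level cannot be repeated with whole-gene values. Of the cell type markers, all 10 of cardiomyocytes, 9 of valve mesenchyme and fibroblasts, 8 of endothelium, 8 of epicardium and 5 of smooth muscle were above the fill-in value in every library. The summed level of the cardiomyocyte markers was 18511 to 26796 RPKM in Scx-/- and 16429 to 29257 RPKM in Scx+/+, and that of the valve mesenchyme markers 421 to 558 RPKM and 397 to 453 RPKM, so that RNA of muscle cells was present in every library. These sums are carried by a few abundant genes such as Myl2, and of the 10 cardiomyocyte markers Ryr2, the calcium release channel gene, was called as lower in Scx-/- (-0.46 on the log2 scale), while the genotypes also did not overlap for the myosin gene Myh7 (-0.33, not called). Erythroid markers summed to 24.8 to 43.4 and 21.2 to 39.3 RPKM and macrophage markers to 32.3 to 53.1 and 41.7 to 44.4 RPKM, among which Cd68 was called as higher in Scx-/- (1.48 on the log2 scale, with a value at fill-in in Scx+/+ replicate 2). Endothelial markers summed to 128 to 154 and 132 to 152 RPKM and smooth muscle markers to 478 to 672 and 446 to 541 RPKM, in Scx-/- and Scx+/+ respectively.

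All 9 genes were detected in all 6 libraries, and their levels spanned from 0.625 RPKM for Gpc2 to 69.7 RPKM for Gpc3 on average. Gpc3 was the most abundant member in every library, with a mean above that of 93.0% of all genes in the table, and made up 44.8% to 66.1% of the summed level of the 9 genes. The order of the mean levels was Gpc3, Sdc2 (16.7 RPKM), Gpc1 (10.2 RPKM), Sdc4 (9.34 RPKM), Sdc1 (4.997 RPKM), Gpc4 (2.88 RPKM), Sdc3 (2.15 RPKM), Gpc6 (1.37 RPKM) and Gpc2. Neighbors in this order whose ranges over the 6 libraries overlapped were Gpc1 and Sdc4, Sdc1 and Gpc4, Gpc4 and Sdc3, and Sdc3 and Gpc6. Gpc1 exceeded Sdc4 in 4 of the 6 libraries and Sdc1 exceeded Gpc4 in 5 of them, and each other member exceeded the next in all 6. Sdc2 led the syndecans, at 45.9% to 58.3% of their summed level.

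**Figure D1:**
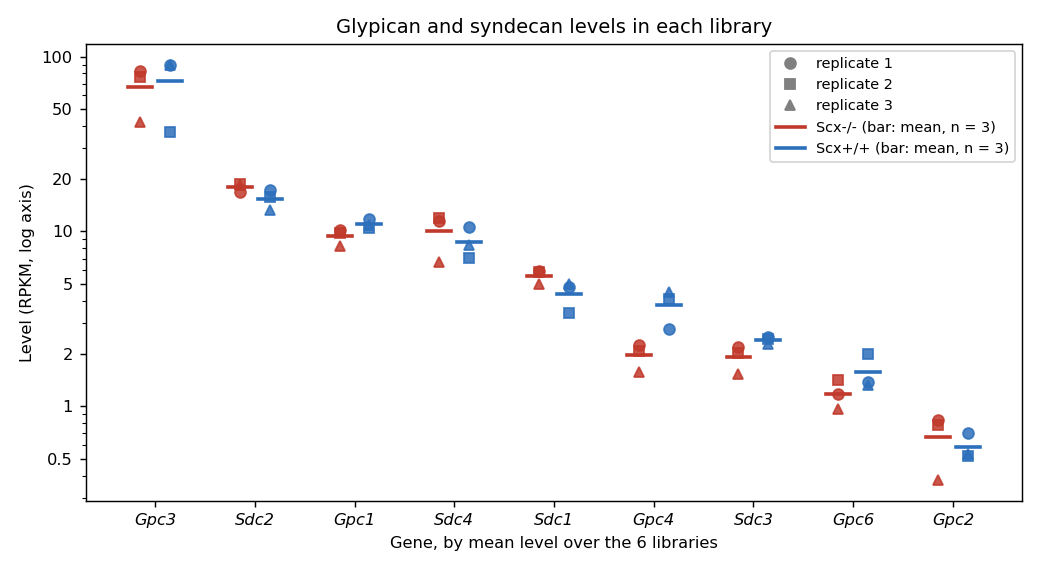
Level of each glypican and syndecan in RPKM (log axis) in each of the 6 libraries, with red for Scx-/- and blue for Scx+/+, a symbol for each replicate and a bar at the mean of each genotype (n = 3). The genotypes are apart for Gpc4, at 1.58 to 2.23 RPKM in Scx-/- and 2.76 to 4.50 RPKM in Scx+/+, while for Gpc3 a low library is seen in each genotype.

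To ask which members differed with the loss of Scx, log2(RPKM + 0.1) was compared with limma over all 18810 genes, and genes with an unadjusted p below 0.05, the threshold of the study, were taken as called. Of the 9 members, 1 was called, the glypican Gpc4, which was lower in Scx-/-. Over all genes, 3.89% were called and 1.06% were called as lower in Scx-/-, and the 0 members called as higher stand beside 2.82% of all genes. At an adjusted p below 0.05, 0 members and 0.0% of all genes were called in limma, where the smallest adjusted p was 0.173 and 731 genes were at an unadjusted p below 0.05. A linear model per gene on the RPKM itself, without pooling of the spread, also called 0 genes after adjustment and 848 before it. The median log2 fold change of all genes was 0.10 above 0, and it was -0.05 for the 9 members, -0.23 for the 5 glypicans and 0.20 for the 4 syndecans. With the median of each library set to 0, the fold change of Gpc4 was -1.01, and Gpc2 alone of the 9 changed its sign.

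**Figure D2:**
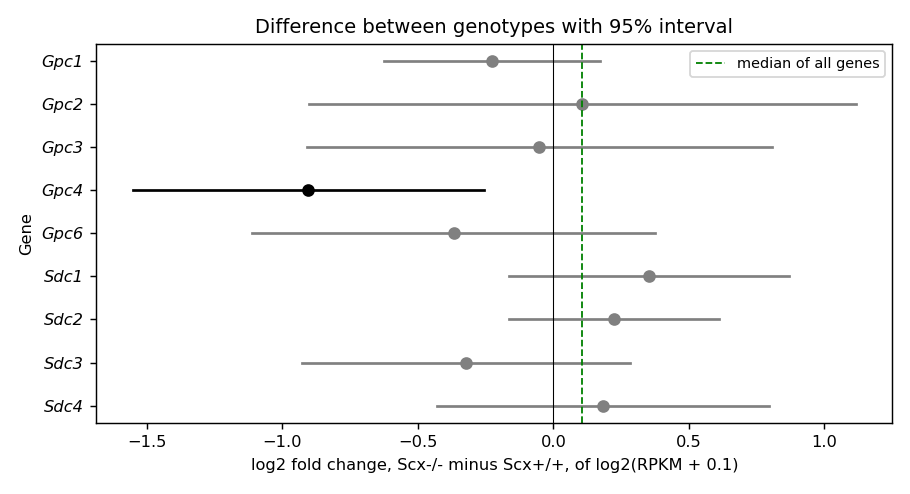
Log2 fold change of each glypican and syndecan between Scx-/- and Scx+/+ on log2(RPKM + 0.1), with its 95% interval from limma, black where the unadjusted p is below 0.05. The interval of Gpc4 alone, -1.55 to -0.26, stays on one side of 0, and the dashed line marks the median of all genes at 0.10.

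Gpc4 is the glypican closest in sequence to Gpc6 and is known for binding Wnt and fibroblast growth factors. It was 2.23, 2.07 and 1.58 RPKM in Scx-/- replicates 1 to 3 and 2.76, 4.12 and 4.50 RPKM in Scx+/+ replicates 1 to 3. The ranges of the genotypes did not overlap, and the Scx+/+ libraries were spread more widely, with replicate 1 nearest to Scx-/-. The Scx-/- mean of 1.96 ± 0.338 RPKM (SD, n = 3) was 0.516 times the Scx+/+ mean of 3.79 ± 0.915 RPKM (SD, n = 3). In limma this gave a log2 fold change of -0.90, with a standard error of 0.29, a 95% interval of -1.55 to -0.26 and an adjusted p of 0.967. The values rested on 309, 367 and 250 reads in Scx-/- and 439, 507 and 818 reads in Scx+/+, so that counting alone gave a relative SD of 6.32% at the fewest reads. An exact permutation test, two-sided, gave p = 0.1, the smallest that 3 libraries against 3 allow. That value is fixed where the genotypes do not overlap, and the test gave the same for Gpc1, Sdc1 and Sdc3. The study itself names Gpc4 among its changed genes on these libraries, so the call here is no independent evidence of its direction. Without Scx+/+ replicate 3, the library with the highest Gpc4, the log2 fold change was -0.77 and Gpc4 was no longer called.

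Gpc4 is on the X chromosome, and the sex of the libraries could be read from Xist and Y-linked genes. Replicate 2 was female and replicates 1 and 3 were male in both genotypes. Within the females Gpc4 was 2.07 RPKM in Scx-/- and 4.12 RPKM in Scx+/+. Within the males it was 1.58 and 2.23 RPKM in Scx-/- and 2.76 and 4.50 RPKM in Scx+/+. As the genotypes did not overlap for Gpc4, any split of the libraries gives the same direction, so the split by sex adds no support.

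**Figure D3:**
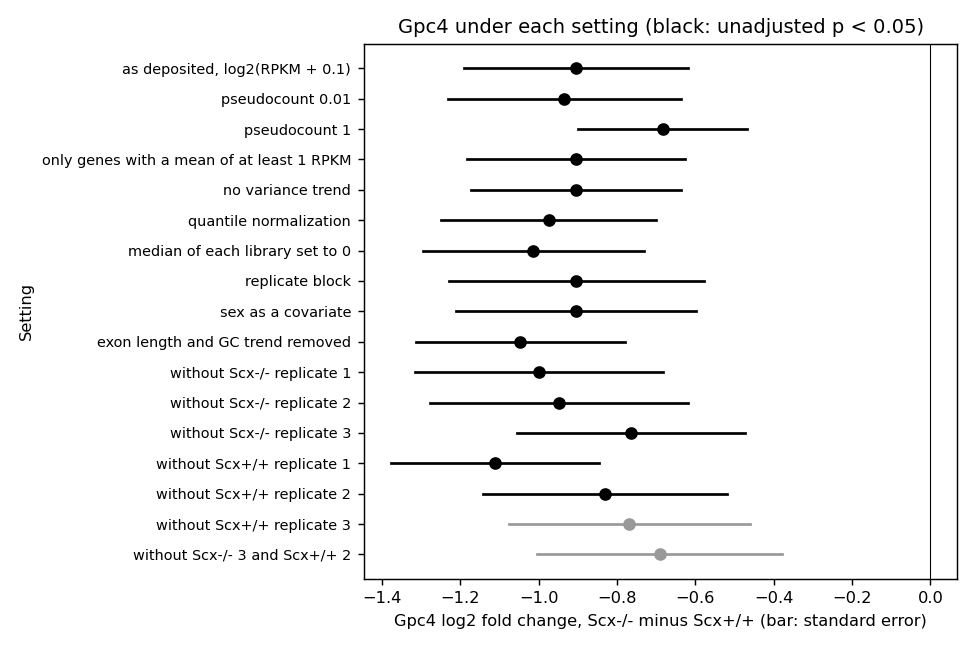
Log2 fold change of Gpc4 with its standard error under each setting of the limma fit, black where the unadjusted p is below 0.05. Every value lies between -1.11 and -0.68, and the settings that leave out Scx+/+ replicate 3, or both Scx-/- replicate 3 and Scx+/+ replicate 2, lose the call. The linear model on RPKM, in another unit, is left out of the plot.

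Gpc3, known for restraining Hedgehog signals and fetal growth, was 83.2, 76.3 and 42.3 RPKM in Scx-/- replicates 1 to 3 and 89.8, 37.2 and 89.7 RPKM in Scx+/+ replicates 1 to 3. Scx-/- replicate 3 and Scx+/+ replicate 2 were low and the other 4 libraries high, so that the genotypes overlapped fully. The log2 fold change was -0.05 with a 95% interval of -0.91 to 0.81, and a difference within that interval could not be told from none in these libraries. The same libraries held the highest summed cardiomyocyte markers, at 26796 RPKM in Scx-/- replicate 3 and 29257 RPKM in Scx+/+ replicate 2 against 16429 to 22176 RPKM in the other 4. The markers did not all follow this sum. Myl2, which carries much of it, was highest in these libraries, at 11262 and 11634 RPKM. Ttn was 157 and 92.4 RPKM there, against 152 to 200 RPKM in the other 4. The part of muscle RNA in the level of Gpc3 was not tested. Without these 2 libraries, an alternative chosen after seeing the data, Gpc3 had a log2 fold change of -0.17, and Gpc4 had one of -0.69 and was not called.

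Gpc1, a glypican of many embryonic tissues, was 10.2, 9.75 and 8.28 RPKM in Scx-/- and 11.7, 10.4 and 10.8 RPKM in Scx+/+ replicates 1 to 3. All Scx-/- libraries were below all Scx+/+ libraries, by a small step between 10.2 and 10.4 RPKM. In limma the log2 fold change was -0.23, with a 95% interval of -0.63 to 0.17 and an adjusted p of 0.967. Gpc6, the closest relative of Gpc4, was 1.17, 1.41 and 0.969 RPKM in Scx-/- and 1.39, 1.98 and 1.33 RPKM in Scx+/+. Its genotypes overlapped, and the log2 fold change of -0.37 had a 95% interval of -1.11 to 0.37. The ratio of Gpc4 to Gpc6, which does not depend on the scaling of a library, was 1.90, 1.47 and 1.63 in Scx-/-. In Scx+/+ it was 1.99, 2.08 and 3.39. Gpc4 as a percentage of Gpc3, also free of that scaling, was 2.68, 2.71 and 3.73 in Scx-/-. In Scx+/+ this percentage was 3.07, 11.1 and 5.02, so that by this measure the genotypes overlapped.

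Gpc2, best known from the developing nervous system, was the least abundant member, at 0.833, 0.782 and 0.379 RPKM in Scx-/- and 0.700, 0.521 and 0.534 RPKM in Scx+/+. It showed the widest 95% interval of the 9 genes, -0.90 to 1.12 around a log2 fold change of 0.11, and its sign turned under another scaling. In the annotation, 3221 of the 8309 exon bases of Gpc2 are shared with Gal3st4 on the same strand and 879 with the opposite-strand 6330418K02Rik, so its level is uncertain. No other member shared more than 48 exon bases with another gene. The 5 glypicans summed to 97.6, 90.3 and 53.5 RPKM in Scx-/- and 106, 54.2 and 107 RPKM in Scx+/+, with overlap. Without Gpc3, they summed to 14.5, 14.0 and 11.2 RPKM in Scx-/- and 16.6, 17.1 and 17.2 RPKM in Scx+/+. Gpc1 and Gpc4, whose genotypes did not overlap, dominate the sums without Gpc3.

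Of the syndecans, Sdc1, the syndecan of epithelia, had the highest log2 fold change. It was 5.94, 5.84 and 4.997 RPKM in Scx-/- and 4.80, 3.43 and 4.985 RPKM in Scx+/+ replicates 1 to 3. The Scx-/- libraries were all higher, but the lowest of them and the highest Scx+/+ library were nearly equal. A log2 fold change of 0.35 was found, with a 95% interval of -0.16 to 0.87 and an adjusted p of 0.967 in limma, and the genotypes overlapped under all 3 of the other scalings tried. Of 8 markers of the epicardium, an epithelial layer, 3 (Tcf21, Upk1b and Aldh1a2) were called as higher in Scx-/-, beside 2.82% of all genes, and the other 5 did not pass, among them Wt1 with a log2 fold change of 0.15. All 8 had a log2 fold change above 0, as did 63.8% of all genes, and their sum was 36.2 to 46.02 RPKM in Scx-/- and 28.2 to 33.3 RPKM in Scx+/+. Their part in the level of Sdc1 was not tested.

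Sdc3, a syndecan best known from neural tissue and muscle progenitors, was 2.19, 2.01 and 1.54 RPKM in Scx-/- and 2.48, 2.42 and 2.28 RPKM in Scx+/+. The Scx-/- libraries were all lower, with an SD of 0.337 RPKM against 0.104 RPKM in Scx+/+ (n = 3 each). The log2 fold change of -0.32 had a 95% interval of -0.93 to 0.28.

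Sdc2, the syndecan of mesenchymal cells and the most abundant of its family here, was 16.8, 18.6 and 18.4 RPKM in Scx-/- and 17.2, 15.8 and 13.2 RPKM in Scx+/+. Scx+/+ replicate 1 lay among the Scx-/- libraries, and the log2 fold change of 0.22 had a 95% interval of -0.16 to 0.61, the narrowest of the 9 genes. Sdc2 lies 43.3 Mb from Scx on the same chromosome. Sdc4, a syndecan of focal adhesions, was 11.5, 11.97 and 6.64 RPKM in Scx-/- and 10.6, 7.04 and 8.31 RPKM in Scx+/+. Like Gpc3 it was lowest in Scx-/- replicate 3 and Scx+/+ replicate 2, and its log2 fold change of 0.18 had a 95% interval of -0.43 to 0.80. After a correction for exon length and GC, the log2 fold changes of Sdc2 and Sdc4 were 0.05 and 0.03, and none of the syndecans was called under any setting.

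The genotypes did not overlap for 4 of the 9 members, lower in Scx-/- for Gpc1, Gpc4 and Sdc3 and higher for Sdc1. Over all genes, they did not overlap for 9.5%, of which most were higher in Scx-/- (7.19% of all genes against 2.31% lower). With the median of each library set to 0, with quantile normalization and after a correction for exon length and GC, 3 members remained apart, which were Gpc1, Gpc4 and Sdc3 under each. The share of all genes whose genotypes were apart was 9.53%, 9.37% and 9.22% under these scalings.

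Gpc4 and Gpc3 are neighbors on chromosome X, with 107 kb between them. They lie in the same orientation, and Hs6st2, which encodes a sulfotransferase that modifies heparan sulfate, starts 483 kb downstream of the Gpc4 start. Gpc3 had a log2 fold change of -0.05 and Hs6st2 one of 0.33 (standard error 0.41), against -0.90 for Gpc4. Within 1.5 Mb on each side of the Gpc4 start the table lists 35 entries, of which Gpc4 was the 1 called. The median log2 fold change of the 18 protein-coding genes there was 0.26, and of all genes of chromosome X 4.55% were called.

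**Figure D4:**
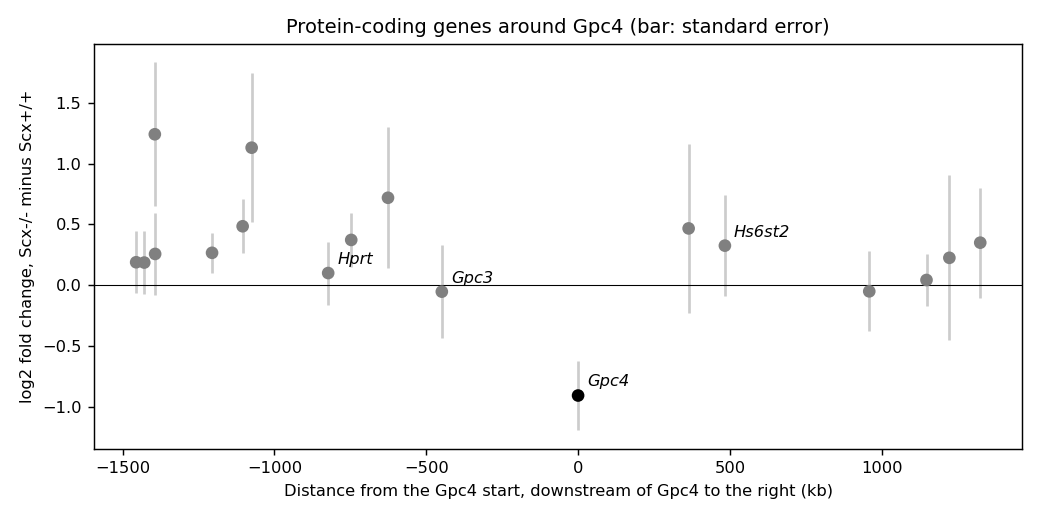
Log2 fold change with its standard error of the 18 protein-coding genes within 1.5 Mb of the Gpc4 start, by the distance of their starts from that of Gpc4. Gpc4 lies lowest at -0.90, while its upstream neighbor Gpc3 is at -0.05 and Hs6st2 downstream is at 0.33.

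The genes that build, modify, trim and read heparan sulfate were taken from 8 lists of 101 symbols, of which 85 were in the table as 87 identifiers. Of the 87, 1 was called, 0 of them as higher in Scx-/- and 1 as lower, or 1.15% against 3.89% of all genes. Their median log2 fold change was 0.04. The 1 was Hspg2, which encodes the basement membrane proteoglycan perlecan. None of 11 genes of linkage and chain synthesis was called, with a median of 0.01 and Fam20b, a xylose kinase, as the most abundant at 13.7 RPKM. Among 9 genes of sulfation and epimerization, led by the 2-O-sulfotransferase gene Hs2st1 at 6.90 RPKM, the median was -0.09 and 0 were called. For 10 genes of trimming, shedding and release, the median was 0.13 and 0 were called, with the protease inhibitor gene Timp3 highest at 22.4 RPKM.

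The cytoplasmic partners of syndecans, 14 identifiers with the membrane linker gene Ezr highest at 31.7 RPKM, held 0 called genes and a median of 0.12. The 4 other membrane proteoglycans, led by the neuropilin gene Nrp1 at 44.6 RPKM, had a median of -0.08 and 0 called. Of 19 ligands that bind heparan sulfate, with Igf2 highest at 103 RPKM, and of 17 identifiers of receptors, with the integrin gene Itgb1 highest at 347 RPKM, 0 were called, at medians of 0.10 and -0.04. The genotypes did not overlap for 6 of the 87 identifiers, or 6.90%, under the 9.5% of all genes. Higher in Scx-/- were Sdcbp, Sdcbp2 and Ndst3, and lower were Actn4, Lrp5 and Hspg2, and of these Hspg2 alone was called. All but Hspg2 are named here after their values were seen. The study names Actn4, Lrp5 and Hspg2 among its changed genes on these libraries, so their directions here are no independent evidence. In rat valve interstitial cells, the study reports higher Actn4 after Scx overexpression. It also reports weaker immunostaining of the Hspg2 protein in mitral valve sections of Scx-/- embryos, a measure outside these libraries. Sdcbp encodes syntenin, the PDZ protein that binds the syndecan ends shown above. It was 27.9, 29.4 and 31.8 RPKM in Scx-/- and 27.3, 24.9 and 23.6 RPKM in Scx+/+ replicates 1 to 3. Actn4, an actin crosslinker gene of the same list, went the other way, at 11.4, 9.03 and 9.10 RPKM in Scx-/- and 14.6, 12.2 and 12.2 RPKM in Scx+/+, or -0.41 as a log2 fold change. Sdcbp2 and Ndst3 each held a value at fill-in in Scx+/+ replicate 2.

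**Figure D5:**
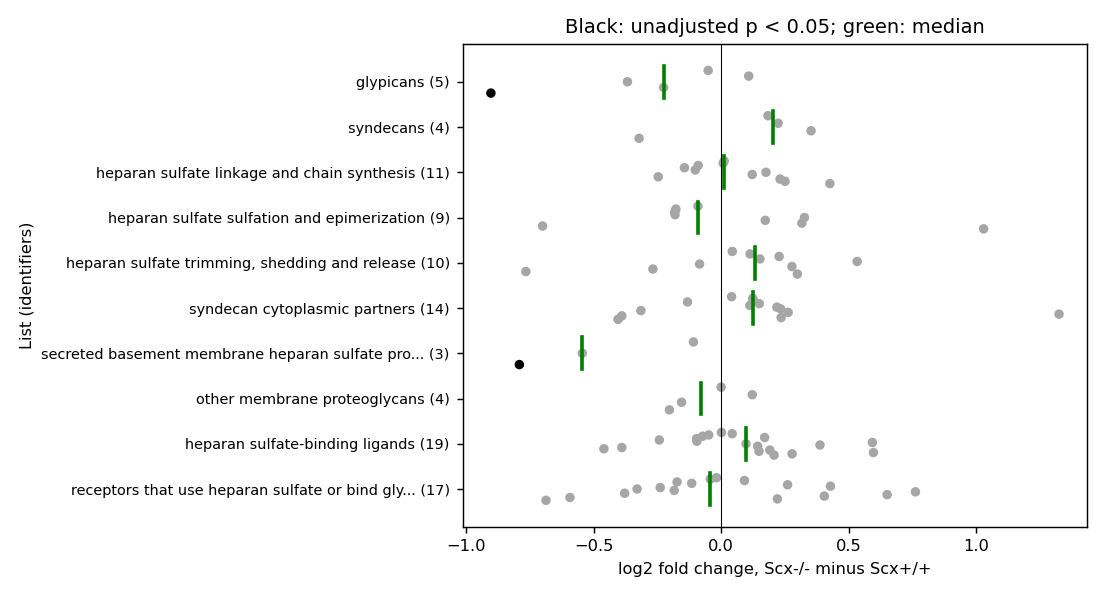
Log2 fold change of each glypican and syndecan and of the identifiers in the 8 other heparan sulfate lists, with a green bar at the median of each list and black points where the unadjusted p is below 0.05. Gpc4 at -0.90 and Hspg2 at -0.79 are the black points.

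The secreted heparan sulfate proteoglycans of the basement membrane gave a comparison with the membrane-bound members. Hspg2 was 2.26, 1.94 and 2.29 RPKM in Scx-/- and 3.43, 3.09 and 5.22 RPKM in Scx+/+ replicates 1 to 3, with no overlap. A log2 fold change of -0.79, with a standard error of 0.28 and an adjusted p of 0.967 in limma, was close in size to that of Gpc4, and after a correction for exon length and GC it was not called, at -0.58, where Gpc4 still was at -1.05. Hspg2 was also not called without Scx-/- replicate 2 (-0.72), without Scx+/+ replicate 3 (-0.57) or in the linear model on RPKM. Agrn, which encodes agrin, was 3.76, 4.62 and 2.67 RPKM in Scx-/- and 6.69, 2.95 and 7.47 RPKM in Scx+/+, with Scx+/+ replicate 2 inside the Scx-/- range. Its log2 fold change was -0.55 (standard error 0.37), which was not called. With each library left out it ranged from -0.96 to -0.30, and it was called without Scx+/+ replicate 2 (-0.96) and without both that library and Scx-/- replicate 3 (-0.75). Col18a1, the gene of the collagen XVIII core protein, was 13.3, 12.6 and 5.78 RPKM in Scx-/- and 16.0, 6.23 and 12.2 RPKM in Scx+/+, and it was low in the same 2 libraries as Gpc3. Differences in fold change between these genes and the members were not tested.

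For the 8 members above Gpc2 in level, the pair of genes with a mean of 1 RPKM or more whose log2(RPKM + 0.1) followed it best over the 6 libraries was found by Pearson correlation, as a description. They were Cyfip1 and Rprd1b for Gpc4 (r of 0.992 and 0.978), Fbxo32 and Cdkl1 for Gpc3 (0.999 and 0.998), Snai2 and Atp6v0d1 for Gpc1 (0.995 and 0.985) and Dusp4 and 1700061H18Rik for Gpc6 (0.983 and 0.972). For the syndecans they were Abca8b and Max for Sdc1 (0.999 and 0.993), Gm15387 and 1700020L24Rik for Sdc2 (0.990 and 0.988), Mmgt2 and Itprip for Sdc3 (0.987 and 0.985) and Ap3m2 and Tcf12 for Sdc4 (0.993 and 0.993). With so few libraries high values are common, as 276 genes had an r over 0.95 with Gpc3 and 11 with Gpc4, and the libraries share their differences in depth and cell makeup.

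Scleraxis belongs to a class of factors that bind the E-box, written CANNTG with N for any base. This pattern, though not each E-box that matches it, reads the same on both strands. It was looked for in the 250 bases before the RefSeq start of each gene in the GRCm38.p6 build. A window was at hand for Gpc2, Gpc3, Gpc4, Sdc1, Sdc3 and Sdc4. Of these 6 windows, 2 held the letters, against 66.2% of all 32851 windows. They are shown with the E-box in capitals, and the one of Gpc2 (chr5:138279966-138279995, minus strand) starts 46 bases and that of Sdc1 (chr12:8771350-8771379, plus strand) 34 bases before the gene.
Gpc2: ccattgtctccgCAGATGcctcctggtcct
Sdc1: cggctagttttgCAACTGcagagcctttgg
In the windows of Gpc3, Gpc4, Sdc3 and Sdc4 these letters were not present. GC made up at most 76.4% of these 6 windows and more than the 52.4% median over all windows in each, and a match of 6 letters is a description and not a binding site.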

How the data were processed

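RNA-seq was performed on 3 Scx-/- and 3 Scx+/+ libraries. Per the labels and methods, the authors aligned reads to mm9 with TopHat 1.4.1, counted reads over Ensembl exons with easyRNASeq and deposited RPKM, filtered to genes with a minimum of mapped reads in a library and with low values replaced by a common value (0.0949 RPKM in the table). Of the 18810 identifiers, 18695 were found in the GENCODE annotation of mm9, the source of symbols, positions and exon lengths. Reads were recovered from RPKM and exon length by solving for the depth at which low values are whole, and 98.45% to 98.57% of values under 1000 reads came out whole within 0.1 read. These reads are not independent molecules, and the counting SDs given cover counting error only.

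The members and gene lists were chosen with earlier results of these data known. Genotypes were compared on log2(RPKM + 0.1) by limma 3.58.1 (R 4.3.3), with the variance trend on and without covariates, and p-values were adjusted over all 18810 genes after Benjamini and Hochberg. Fold changes are on that scale, which understates changes of low genes. Named were all members, the called genes and the most abundant gene of each list. The secreted heparan sulfate proteoglycans, Scx and the genes most like each member were also named. Chosen after their values were seen were Hs6st2, the other heparan sulfate genes whose genotypes did not overlap, and the markers Myh7, Ttn and Wt1. Of the markers only called genes and the leading cardiomyocyte marker are otherwise named. The alternatives were pseudocounts of 0.01 and 1, the 13827 genes whose mean reached 1 RPKM, no trend, a linear model per gene on RPKM, quantile normalization, median scaling, the replicate number as a block, sex, a spline correction for exon length and GC (5 degrees of freedom each) and each library left out. The fit was tested on simulated data. Python 3.11.15 with pandas 2.3.3, scipy 1.17.1, Biopython 1.88 and matplotlib 3.10.9 did the rest, with global alignment for coding sequences. Exon-level data were not analysed here. One marker list is not reported here.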

Additional observations from a re-analysis of the deposited data

How the results depend on the processing

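The count of called members, 1, held under every alternative that kept all 6 libraries. Under these, 573 to 848 of all genes were called, and 568 of the 13827 genes whose mean reached 1 RPKM. The count of members was 0 to 1 with each library left out, 0 being without Scx+/+ replicate 3 (539 of all genes called). It was also 0 without both Scx-/- replicate 3 and Scx+/+ replicate 2, an alternative chosen after seeing the data (1587 of all genes called). No member was called after adjustment under any setting. With the replicate number as a block 1 member was called. Same-numbered libraries correlated at 0.09, -0.22 and -0.19 in their deviations from the genotype means. With so few libraries, these values cannot show whether the numbers mark pairs, and same-numbered libraries were of the same sex. The block changed no call of a member while 573 of all genes were called with it, against 731. The 4 members that did not overlap became 3 under each other scaling, beside 9.22% to 9.53% of all genes. The 1 called gene among the 87 other heparan sulfate identifiers became 2 with a pseudocount of 1 (714 of all genes called) or with sex as a covariate (649). It became 3 without a variance trend, with quantile normalization, with the median set to 0 or after the correction for exon length and GC. In the linear model per gene on RPKM it was 4 (848 of all genes called). Leaving out each library gave 1 to 8, with 8 without Scx+/+ replicate 2 (1549 of all 18810 genes called), 5 without Scx-/- replicate 1 (578), 4 without Scx-/- replicate 3 (821) and 3 without Scx+/+ replicate 1 (1003), and it was 9 without both libraries above (1587). With all libraries, where 3 were called, the totals were 645 to 705 of all genes. Agrn was among those called, at -0.96 without Scx+/+ replicate 2. Signs turned for Gpc2 with the median set to 0 (-0.0018), and with libraries left out for Gpc2 (-0.066 to 0.41), Gpc3 (-0.47 to 0.25) and Col18a1 (-0.49 to 0.27). With each library left out, Gpc4 ranged from -1.11 to -0.76, Gpc1 from -0.29 to -0.14, Gpc6 from -0.49 to -0.20, Sdc1 from 0.19 to 0.45, Sdc2 from 0.12 to 0.31, Sdc3 from -0.42 to -0.18 and Sdc4 from 0.03 to 0.45. The cause of these changes was not tested. With 3 libraries a genotype, changes within a 95% interval that holds 0 could not be told from none.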
